A study of Rattus norvegicus with 6 samples.

Results

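Zinc, copper and magnesium handling genes were taken from the count table of rat brain microvascular endothelial cells (rBMECs) exposed to homocysteine (Hcy). They were chosen by gene name: the zinc importers (Slc39), the zinc exporters (Slc30), the copper uptake carriers (Slc31), the magnesium carriers (Slc41), the metallothioneins Mt1, Mt1a, Mt1m, Mt2A and Mt3, the transcription factor Mtf1, the copper pumps Atp7a and Atp7b, and the copper chaperones Atox1 and Ccs. The rule found 38 of 33566 genes, and Mt1a matched no row. Of the 38 genes, 32 had at least 10 counts summed over the 6 libraries and were tested.

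The 3 Hcy libraries came from primary rBMECs that had Hcy for 24 h, and the 3 vehicle (Veh) libraries from cells given the solvent, ddH2O. Both groups were primary cultures from cortex of SD (Sprague-Dawley) rats 18 to 22 days of age, used after a single passage, with no genetic change described. The paper that reported these data gives the cerebral forebrain as the tissue. The labels give a dose of 100 μM and also name a prepared Hcy solution of 50 μM. The series text calls the 3 libraries of a group biological replicates and does not say whether they came from separate isolations, so the p-values measure the spread between these libraries, part of which may be technical.

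Zinc enters the cytosol through ZIP proteins, encoded by Slc39 genes, and leaves it for the medium or for organelles through ZnT proteins, encoded by Slc30 genes. Metallothioneins are small cysteine-rich proteins that hold zinc and copper in the cytosol. MTF1 senses free zinc, binds metal response elements and switches on the metallothionein genes and Slc30a1. Copper enters through SLC31A1 (CTR1), is passed by ATOX1 to the pumps ATP7A and ATP7B and by CCS to superoxide dismutase 1, and brain capillary endothelium is the route by which copper reaches brain tissue. Hcy carries a thiol group, and thiols bind copper and zinc.

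The libraries held 14024997 to 16764584 counts on genes. At this depth 3 counts, taken as the floor, correspond to 0.178 to 0.215 CPM (counts per 1000000 counts of a library), which covers counting error only. The endothelial markers summed to between 9987 and 10423 CPM in Hcy and between 8431 and 9916 CPM in Veh, with Cldn5 at 0 counts in every library. The paper shows the protein of that gene in rBMECs by Western blot. Why no reads were counted for Cldn5 was not tested, so their lack is not taken as absence of the transcript. Smooth muscle markers summed to between 674 and 702 CPM in Hcy and between 1120 and 1348 CPM in Veh, and 3 of the 5 (Tagln, Acta2 and Cnn1) passed an adjusted p of 0.05, all lower in Hcy. Tagln made up most of that sum, at 582 CPM in Hcy and 1071 CPM in Veh on average, while Myh11 and Des had log2 fold changes of -0.04 and 0.55. Astrocyte markers summed to between 113 and 117 CPM in Hcy and between 126 and 151 CPM in Veh, with Aqp4 and Slc1a2 at 0. Nearly all of that sum was Gja1, a connexin that endothelial cells also express, at 115 CPM in Hcy and 139 CPM in Veh on average, and no other astrocyte marker averaged over 1 CPM. Fibroblast markers summed to between 35.7 and 57.8 CPM in Hcy and between 57.5 and 83.9 CPM in Veh, highest in Veh replicate 3, mostly from Col1a1, and pericyte markers to between 4.77 and 7.46 CPM in Hcy and between 3.68 and 4.85 CPM in Veh. Microglia and neuron markers stayed under 10 CPM in sum, with Ptprc, Cx3cr1, P2ry12, Snap25, Map2, Rbfox3 and Nefl at 0. Oligodendrocyte markers summed to between 64.1 and 68.2 CPM in Hcy and between 61.9 and 70.5 CPM in Veh, with Mag at 0, and choroid plexus markers to between 5.97 and 6.89 CPM in Hcy and between 3.18 and 5.22 CPM in Veh. The part of these cell types in the metal genes was not tested. In bulk RNA, fewer cells of a type and less RNA per cell cannot be told apart.

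Veh replicate 3 stood apart from the other Veh libraries by gene length. Against the mean of Veh replicates 1 and 2, genes shorter than 1000 bases had a median log2 difference of 0.25 in Veh replicate 3 (1957 genes), and genes longer than 5000 bases one of -0.27 (1229 genes). In the Hcy libraries, each against the other Hcy libraries, the same medians lay between -0.10 and 0.09. Of the metal genes with a mean of at least 1 TPM (transcripts per 1000000 transcripts, here from the counts and the listed gene lengths), 4 of 4 shorter than 1000 bases were higher in Veh replicate 3, and 16 of 21 longer than 2000 bases were lower. Values without Veh replicate 3 are given beside many of those with all libraries, and genes that took both signs are listed with the processing alternatives. The part of gene length in them was not tested.

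**Figure D1:**
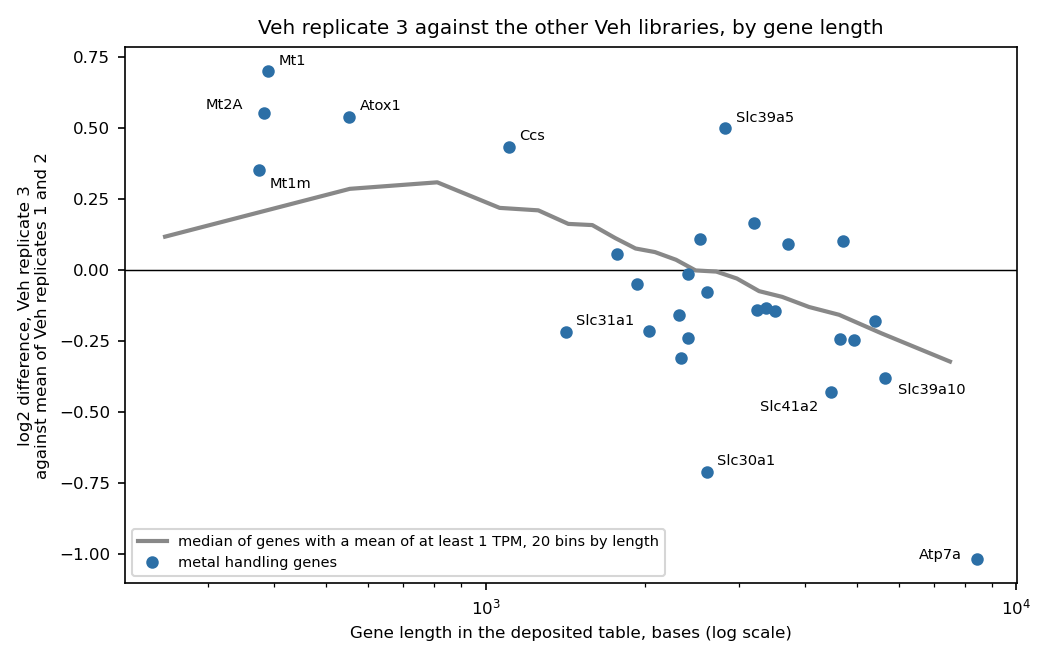
Log2 difference of Veh replicate 3 from the mean of Veh replicates 1 and 2 (vertical axis) against gene length in bases (horizontal, log scale), for metal handling genes with a mean of at least 1 TPM (blue points) and as the median of all genes of that level in 20 bins by length (grey line). Short genes, among them Mt1, Mt2A and Atox1, lie above 0, and Atp7a, the longest of the genes shown, lies lowest at -1.02.

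None of the 32 metal handling genes tested passed an adjusted p of 0.05 between Hcy and Veh by edgeR's quasi-likelihood test, where 2.34% of all 14603 genes tested did, and none passed with a log2 fold change of at least 1 in size as well, where 0.486% did. At an unadjusted p under 0.05 there were 3, Mt2A and Slc39a13, both lower in Hcy, and Slc41a2, higher in Hcy. That is 3 of 32 against 13.4% of all genes tested. In fits that left out 1 library the number lay between 2 (without Hcy replicate 3) and 7 (without Veh replicate 3). The share of all genes was not counted in those fits, so these numbers cannot be set against the 13.4%, which is from all libraries. Over all genes, the number that passed an adjusted p of 0.05 by edgeR rose from 341 to 957 without Veh replicate 3. DESeq2 on the same genes passed 1 of the 32, Mt2A, where it passed 4.14% of all genes, and edgeR with no minimum on counts also passed 1, Mt2A (adjusted p = 0.0161), where 2.48% of all genes passed. Without Veh replicate 3, edgeR passed 3 of the 32 (Mt2A, Slc30a1 and Slc39a13, all lower in Hcy), where 6.67% of all genes passed. Of the 32 genes, 6 had no overlap between the libraries of both groups, 2 higher and 4 lower in Hcy, a share of 18.8% against 20.1% of all genes tested. The median log2 fold change was -0.01 for these genes and -0.02 for all genes tested, with 16 higher and 16 lower.

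The intervals set how large a difference could have been missed. In 27 of the 32 genes the 95% interval of the log2 fold change lay within -1 and 1, and in 20 of the 32 within -0.5 and 0.5. The 5 genes with wider intervals were Mt1, Mt1m, Mt3, Mtf1 and Atp7b, whose mean level over the 6 libraries was at most 10.0 TPM.

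**Figure D2:**
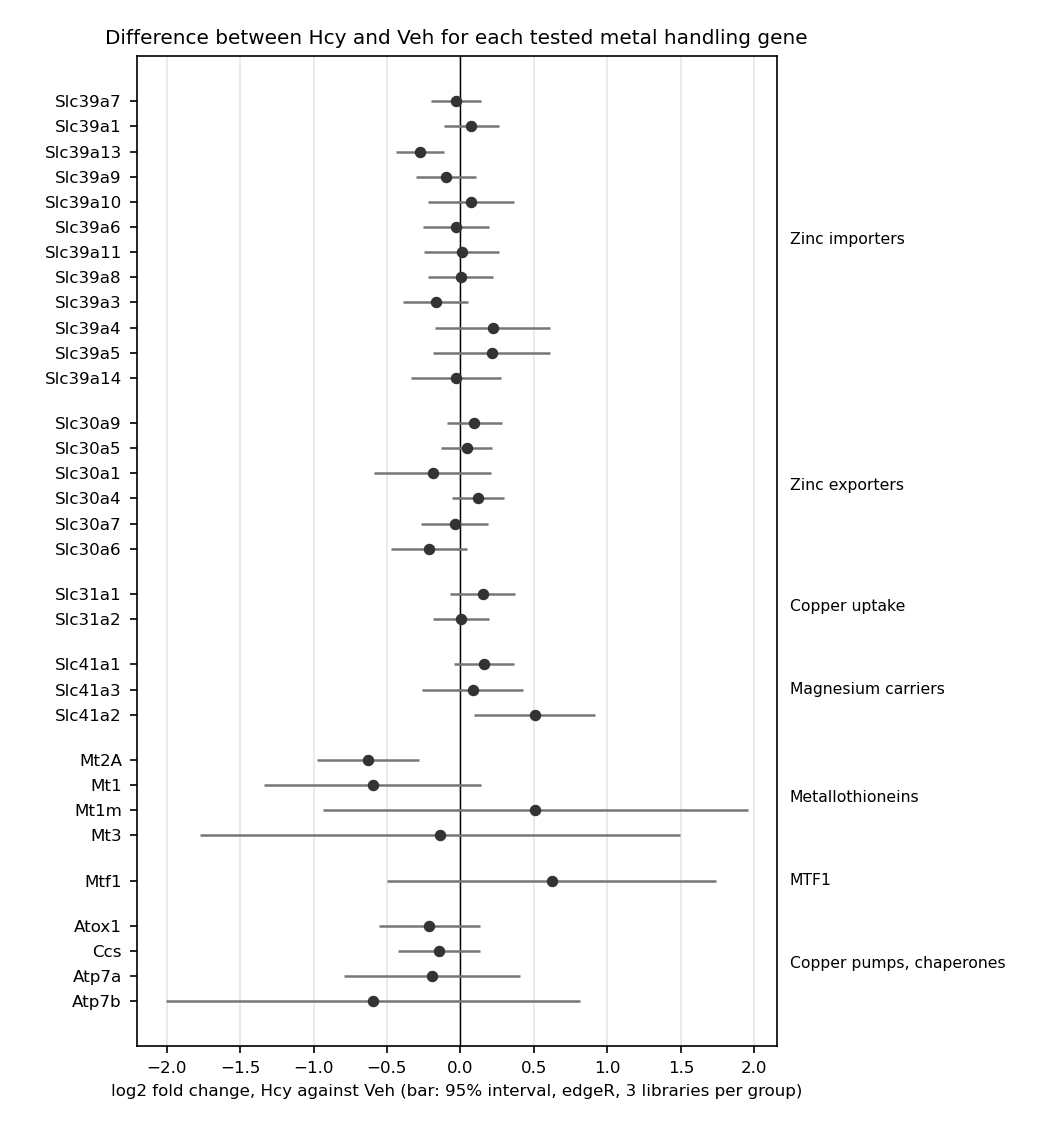
Log2 fold change of Hcy against Veh from edgeR (points) with 95% intervals (bars, 3 libraries per group) for the 32 metal handling genes tested, ordered by role and by level. Most points lie near 0, Mt2A and Slc39a13 lie to the left with intervals that stop short of 0, and Slc41a2 lies to the right.

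Mt2A, the metallothionein with the most reads, stood highest of the 32 genes per length (363 TPM), and among the 27 genes with the narrower intervals its difference between groups was the largest. Regulation of metallothioneins by zinc runs through metal response elements. The 250 bases before the start of Mt2A, of Mt1 and of Slc30a1, textbook targets of MTF1, are therefore shown from RefSeq (GRCr8), 5′ to 3′ along each gene. Capitals mark the core of the element, TGCACNC or TGCGCNC, searched on both strands, so that a match on the opposite strand reads GNGTGCA or GNGCGCA. These genes were printed after their values had been seen.

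Mt2A, chr19:10838709-10838958, minus strand: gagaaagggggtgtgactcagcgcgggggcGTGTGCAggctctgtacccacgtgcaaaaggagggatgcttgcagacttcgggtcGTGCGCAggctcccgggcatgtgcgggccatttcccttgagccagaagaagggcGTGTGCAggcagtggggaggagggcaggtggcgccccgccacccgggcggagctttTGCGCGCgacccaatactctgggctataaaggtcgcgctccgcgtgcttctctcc

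Mt1, chr19:10832976-10833225, minus strand: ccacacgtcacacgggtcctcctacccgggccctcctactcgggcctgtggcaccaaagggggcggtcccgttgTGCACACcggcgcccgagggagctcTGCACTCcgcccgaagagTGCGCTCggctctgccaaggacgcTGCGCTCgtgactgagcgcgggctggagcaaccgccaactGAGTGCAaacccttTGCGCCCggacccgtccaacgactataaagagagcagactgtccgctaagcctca

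Slc30a1, chr13:106021769-106022018, plus strand: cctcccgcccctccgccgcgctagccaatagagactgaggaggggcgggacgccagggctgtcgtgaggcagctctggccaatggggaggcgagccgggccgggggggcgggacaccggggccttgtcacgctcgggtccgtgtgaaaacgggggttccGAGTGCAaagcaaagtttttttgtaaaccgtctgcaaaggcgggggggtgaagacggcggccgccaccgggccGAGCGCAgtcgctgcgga

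Mt2A held 4 matches, which begin 220, 165, 111 and 55 bases before the start. Mt1, here RefSeq's protein-coding gene beside Mt2A, held 6 matches, between 176 and 55 bases before the start, and Slc30a1 held 2, at 91 and 18 bases. Of the 33469 promoters of the table, 20.6% held at least 1 match in the same 250 bases and 0.266% held 4 or more. Of the 30 metal handling genes matched to this table by symbol, leaving out the rows Mt1 and Mt1m, 15 held at least 1. Slc39a7 also held 4, some of them overlapping, and Mt3 held 3. A match describes the letters only.

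Mt2A, listed on chromosome 19 from 11307967 to 11308740 (the table names no build), was at 64.8, 54.7 and 60.2 CPM in Hcy replicates 1 to 3 and at 76.5, 83.7 and 118 CPM in Veh replicates 1 to 3. Every Hcy library lay below every Veh library, and Veh replicate 3 was the highest of the 6. The means were 59.9 ± 5.02 CPM (SD, n = 3) for Hcy against 92.7 ± 22.0 CPM (SD, n = 3) for Veh, a ratio of 0.647. The log2 fold change was -0.63 (standard error 0.15, 95% interval -0.98 to -0.28) and did not pass the threshold (edgeR, adjusted p = 0.0834). Without Veh replicate 3 the difference was smaller, with a log2 fold change of -0.42, and passed (standard error 0.08, edgeR, adjusted p = 0.0148). DESeq2 on all 6 libraries also passed it, at -0.63 (adjusted p = 0.00204). Over the fits that left out 1 library each, the log2 fold change lay between -0.75 and -0.42 and the adjusted p between 0.0148 and 0.27. The 420 genes with listed lengths of 300 to 500 bases and a mean of at least 1 TPM, a range that holds Mt2A at 382 bases, had a median log2 fold change of -0.09, and of 0.07 without Veh replicate 3. With all libraries, 9.29% of them had a lower log2 fold change than Mt2A, against 1.79% of the genes of 1000 to 5000 bases. These genes were matched on length and not on counts. They include Mt1m, with 31 reads in all against 7030 for Mt2A, so counting error also enters the share. The share without Veh replicate 3 was not counted.

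The row named Mt1 needs care. The table lists it on chromosome 17 with a length of 389 bases, and RefSeq lists on that chromosome, with that length, the pseudogene Mt1-ps3. RefSeq's protein-coding Mt1 is the neighbour of Mt2A on chromosome 19. In the deposited table that place beside Mt2A is held by AC128848.1, from 11302125 to 11302938, which the table describes by a metallothionein domain. AC128848.1 falls outside the naming rule and was added after its values had been seen. The row Mt1m, on chromosome 20, also carries a name that RefSeq gives to a pseudogene. Where copies are near-identical, their reads may have gone to either row or to none, and the row Mt1 lies wholly inside Dclre1c, a gene on the opposite strand with 70 to 115 counts per library. The strand setting of the counting is not given in the sources used here.

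AC128848.1 was at 9.69, 7.39 and 8.71 CPM in Hcy replicates 1 to 3 and at 11.3, 11.0 and 17.2 CPM in Veh replicates 1 to 3, so the groups did not overlap and Veh replicate 3 was again the highest. Its log2 fold change was -0.61 (standard error 0.20, edgeR, adjusted p = 0.195), and -0.37 without Veh replicate 3 (adjusted p = 0.193). Mt1 had 19, 32 and 27 counts in the Hcy libraries and 31, 36 and 53 in the Veh libraries, and the groups overlapped. Its log2 fold change was -0.60 (standard error 0.33, edgeR, adjusted p = 0.495), and -0.27 without Veh replicate 3 (adjusted p = 0.691). When the 5 metallothionein rows with counts were summed into 1, a choice made after seeing the data, Mt2A made up 84.3% to 86.0% of their reads. The sum was 70.8 ± 5.77 CPM (SD, n = 3) for Hcy against 109 ± 26.5 CPM (SD, n = 3) for Veh, at a log2 fold change of -0.62 (standard error 0.15, edgeR, adjusted p = 0.091). The sum without Veh replicate 3 gave -0.40 (log2 fold change, standard error 0.08, edgeR, adjusted p = 0.0153). All Hcy libraries lay below all Veh libraries in the sum, as in Mt2A. The sum of the smooth muscle markers, mostly Tagln, was also lower in Hcy. It was 702, 674 and 688 CPM in the Hcy libraries and 1261, 1120 and 1348 CPM in the Veh libraries. Like Mt2A and the fibroblast markers, it was highest in Veh replicate 3. Myh11 and Des did not follow it, with log2 fold changes of -0.04 and 0.55. The part of smooth muscle cells and fibroblasts in the metallothionein values was not tested.

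Mt3, a brain metallothionein known from neurons and astrocytes, had 2, 2 and 3 counts in the Hcy libraries and 4, 2 and 2 in the Veh libraries (log2 fold change -0.14, standard error 0.72, edgeR, adjusted p = 0.963). Mt1m had 7, 8 and 3 counts in the Hcy libraries and 3, 4 and 6 in the Veh libraries (log2 fold change 0.51, standard error 0.64, edgeR, adjusted p = 0.809). The groups overlapped in both. At this depth no difference in either could be detected short of a large one, since their 95% intervals ran from -1.77 to 1.49 and from -0.94 to 1.96. Leaving out 1 library moved Mt1m between 0.25 (without Hcy replicate 2) and 0.88 (without Hcy replicate 3), and it was 0.87 without Veh replicate 3.

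Mtf1, the zinc sensor itself, had 24, 57 and 36 counts in the Hcy libraries and 13, 47 and 18 in the Veh libraries, in the order of their replicate numbers. Replicate 2 was the highest library in both groups, and the groups overlapped. The log2 fold change was 0.62 (standard error 0.50, 95% interval -0.50 to 1.74, edgeR, adjusted p = 0.672). Leaving out 1 library moved it between 0.22 (without Hcy replicate 2) and 1.35 (without Veh replicate 2). Mtf1 stood at 0.909 TPM, against 363 TPM for Mt2A.

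Slc30a1 (ZnT1), the zinc exporter of the cell surface, is a textbook MTF1 target outside the metallothioneins. It is listed on chromosome 13 from 110677810 to 110681683. Its levels were 40.9, 47.6 and 44.2 CPM in Hcy replicates 1 to 3 and 55.0, 60.9 and 35.2 CPM in Veh replicates 1 to 3. Veh replicates 1 and 2 were above all Hcy libraries and Veh replicate 3 was below them. With all libraries the log2 fold change was -0.19 (standard error 0.18, 95% interval -0.59 to 0.21, edgeR, adjusted p = 0.72). Without Veh replicate 3 it was -0.39 and passed (standard error 0.08, edgeR, adjusted p = 0.0204). Leaving out Veh replicate 2 in its place gave -0.03 (adjusted p = 0.969), so the call depends on which Veh libraries enter. Slc30a1 is 2610 bases long, and its log2 difference from the other Veh libraries was -0.71 in Veh replicate 3, where Mt2A had one of 0.55. The bins of all genes nearest to its length, at 2487 and 2722 bases, had medians of -0.002 and -0.006 in that library.

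**Figure D3:**
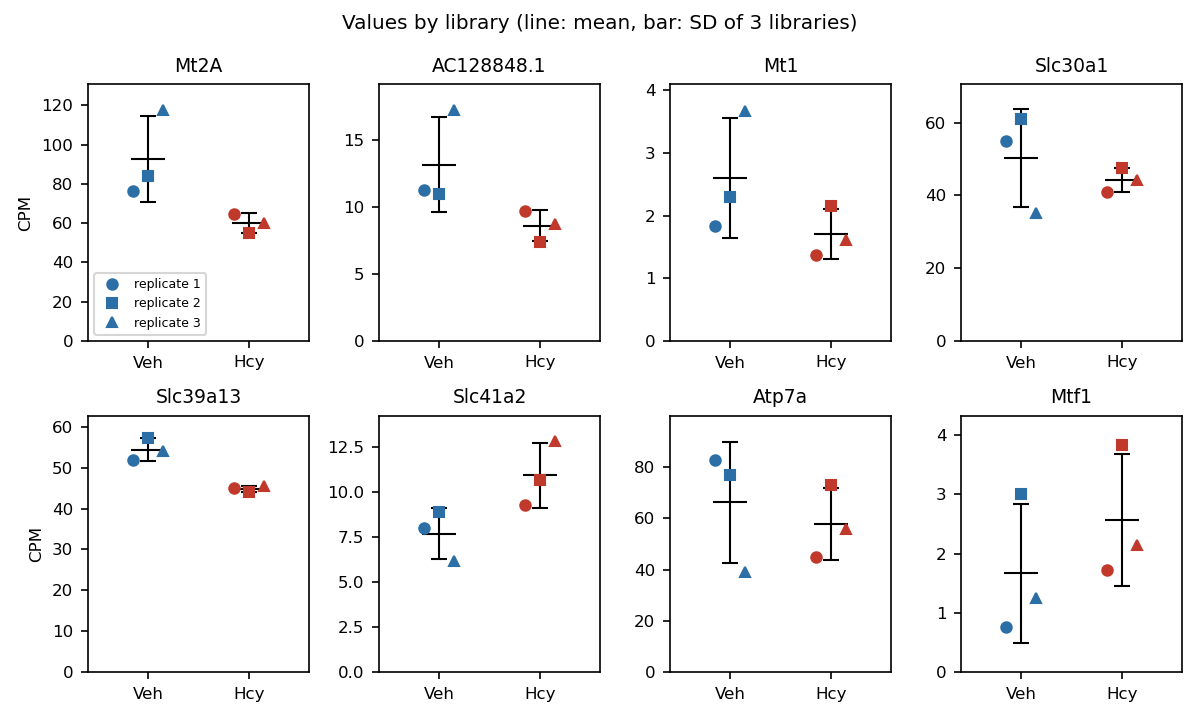
CPM in each library (points, shape by replicate number) with the mean (line) and SD (bar) of the 3 Veh and 3 Hcy libraries, for 8 genes with axes that start at 0. In Mt2A, AC128848.1 and Mt1 Veh replicate 3 is the highest library, in Slc30a1, Slc41a2 and Atp7a it is the lowest of the Veh libraries, and in Slc39a13 the 3 Hcy libraries sit close together below the Veh libraries.

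Most of the other Slc30 products place zinc in organelles, and SLC30A10 is known as a manganese exporter. Of the 10 Slc30 genes, 6 were tested, 3 higher and 3 lower in Hcy, with log2 fold changes between -0.22 and 0.12. Slc30a9, a carrier of mitochondria, had the highest level of the family at 58.9 ± 4.01 TPM (SD, n = 3) for Hcy against 54.5 ± 7.72 TPM (SD, n = 3) for Veh, and the groups overlapped (log2 fold change 0.09, edgeR, adjusted p = 0.706). Slc30a5 and Slc30a6, whose products pair to load zinc into enzymes of the secretory pathway, differed in level, at 39.7 and 14.9 TPM. Slc30a6 was at 14.4, 14.4 and 15.0 CPM in Hcy and 18.8, 15.4 and 16.5 CPM in Veh, with no overlap and a log2 fold change of -0.22 (standard error 0.11, edgeR, adjusted p = 0.482), which was -0.13 without Veh replicate 1, its highest library. Slc30a4, found on endosomes, was at 90.8, 95.4 and 93.2 CPM in Hcy and 89.1, 89.7 and 78.8 CPM in Veh. Its groups did not overlap either, with Hcy higher (log2 fold change 0.12, standard error 0.08, edgeR, adjusted p = 0.592). It was 0.06 without Veh replicate 3, the lowest library, where Slc30a9 had a log2 fold change of 0.04. Slc30a7, a Golgi carrier, had a log2 fold change of -0.04 (95% interval -0.27 to 0.19). Slc30a2, Slc30a3, Slc30a8 and Slc30a10 were not tested. Slc30a3, the carrier of synaptic vesicles, had 9 reads in all, Slc30a2 had 8 and Slc30a10 had 1, while Slc30a8, the carrier of insulin granules, had 0 in every library.

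The zinc importers were the largest family, with 14 genes. Of these, 12 were tested, 6 higher and 6 lower in Hcy, with log2 fold changes between -0.28 and 0.22. Slc39a13 (ZIP13), a carrier of the secretory pathway needed for connective tissue, is listed on chromosome 3 from 79884524 to 79892429. It was at 45.0, 44.1 and 45.5 CPM in Hcy replicates 1 to 3 and at 51.8, 57.3 and 54.0 CPM in Veh replicates 1 to 3. All Hcy libraries lay below all Veh libraries, and Veh replicate 3 fell between the other Veh libraries. The log2 fold change was -0.28 (standard error 0.07, 95% interval -0.44 to -0.11) and did not pass (edgeR, adjusted p = 0.104). It was -0.28 without Veh replicate 3 as well, where it passed (adjusted p = 0.0408), and DESeq2 did not pass it (adjusted p = 0.123). Over the fits without 1 library each it lay between -0.31 and -0.24. The ratio of the means of Slc39a13 was 0.825.

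Slc39a7 (ZIP7), which releases zinc from the endoplasmic reticulum, and Slc39a1 (ZIP1), at the cell surface, had the highest levels of the family. Slc39a7 stood at 114 ± 4.20 TPM (SD, n = 3) for Hcy against 114 ± 5.21 TPM (SD, n = 3) for Veh, with a log2 fold change of -0.03 (95% interval -0.20 to 0.14, edgeR, adjusted p = 0.924). Slc39a1 stood at 101 ± 1.32 TPM (SD, n = 3) for Hcy against 94.5 ± 15.6 TPM (SD, n = 3) for Veh, and its log2 fold change was 0.07 (95% interval -0.11 to 0.26). Slc39a1 was below Slc39a7 in TPM in each of the 6 libraries.

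Slc39a3 (ZIP3), another importer of the cell surface, was at 21.3, 18.7 and 19.8 CPM in Hcy and at 21.7, 22.2 and 23.4 CPM in Veh. The groups did not overlap, and the log2 fold change was -0.17 (standard error 0.10, edgeR, adjusted p = 0.526). Slc39a6 and Slc39a10, closely related importers of the cell surface, had log2 fold changes of -0.03 and 0.07, with intervals of -0.26 to 0.19 and -0.22 to 0.37. Slc39a8 and Slc39a14, which also carry manganese and iron, had log2 fold changes of 0.00 and -0.03, with intervals of -0.22 to 0.22 and -0.33 to 0.28. They stood at 12.1 and 3.11 TPM, the latter the lowest of the importers tested. Slc39a9 and Slc39a11 had log2 fold changes of -0.10 and 0.01. Slc39a9 was at -0.18 without Veh replicate 3 (95% interval -0.32 to -0.03, edgeR, adjusted p = 0.166) and at -0.04 without Veh replicate 1. Slc39a4, the importer known from intestinal zinc uptake, and Slc39a5 were at 6.69 and 5.67 TPM with log2 fold changes of 0.22 and 0.21, and their groups overlapped. Slc39a4, without Veh replicate 3, had one of 0.12 and Slc39a5 one of 0.41 (95% interval 0.08 to 0.73, edgeR, adjusted p = 0.143), since Veh replicate 3 was the only Veh library of Slc39a5, at 10.2 CPM, to reach the Hcy libraries. Over the fits without 1 library each, Slc39a4 lay between 0.11 and 0.34 and Slc39a5 between 0.11 and 0.41. Slc39a5 meets the gene Ankrd52 of the opposite strand over 13 bases. Slc39a2 and Slc39a12, the latter known from astrocytes, had 0 counts in all 6 libraries, which allows up to 0.178 to 0.215 CPM.

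**Figure D4:**
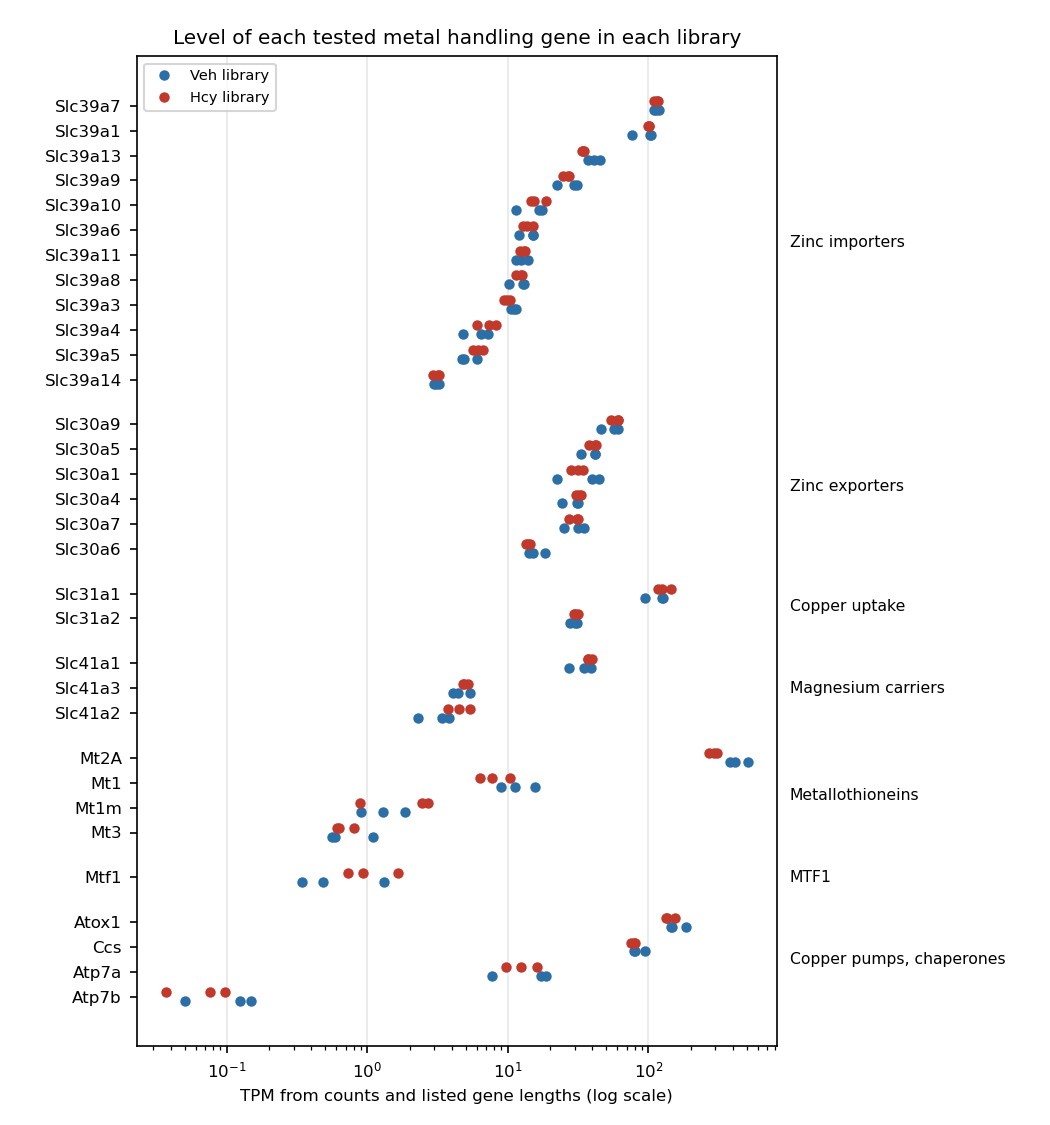
Level of the 32 metal handling genes tested in TPM (horizontal, log scale), with 3 Hcy libraries (red) and 3 Veh libraries (blue) per gene, grouped by role. Mean levels over the 6 libraries run from 0.0885 TPM for Atp7b to 363 TPM for Mt2A, and between genes levels differ far more than between the groups of a gene.

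Of the copper carriers, pumps and chaperones chosen by name, Atox1 and Slc31a1 stood highest per length, at 151 and 122 TPM, with Ccs at 81.3 TPM. Slc31a1 (CTR1), the copper importer, is listed on chromosome 5 from 78222504 to 78249358 and was at 92.1, 110 and 94.9 CPM in Hcy and at 94.0, 93.0 and 80.4 CPM in Veh. The groups overlapped, and the log2 fold change was 0.15 (standard error 0.10, 95% interval -0.07 to 0.37, edgeR, adjusted p = 0.577). It was 0.08 without Veh replicate 3 and 0.07 without Hcy replicate 2. Slc31a2 (CTR2), a relative found on endosomes and lysosomes, was at 29.0 ± 1.09 CPM (SD, n = 3) for Hcy against 28.9 ± 0.801 CPM (SD, n = 3) for Veh. Its log2 fold change was 0.00 (95% interval -0.19 to 0.19, edgeR, adjusted p = 0.996). Slc31a2 stood at 30.1 TPM.

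Atox1, the chaperone that feeds the copper pumps, was at 47.1, 40.3 and 39.7 CPM in Hcy and at 42.7, 42.4 and 62.2 CPM in Veh. Veh replicate 3 was the highest library and the groups overlapped (log2 fold change -0.21, standard error 0.15, edgeR, adjusted p = 0.623). Without Veh replicate 3 it was -0.01 (95% interval -0.20 to 0.18). Ccs, the chaperone of superoxide dismutase 1, also had Veh replicate 3 as its highest library, at 49.5, 46.5 and 44.7 CPM in Hcy and 46.3, 46.6 and 62.9 CPM in Veh. The log2 fold change of this gene was -0.15 (standard error 0.12, edgeR, adjusted p = 0.689) and became 0.01 without Veh replicate 3. In both chaperones the difference between groups therefore rested on that library.

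Atp7a, the copper pump that exports copper from endothelial cells, is listed on chromosome X from 77076106 to 77193644. It was at 44.9, 72.8 and 55.8 CPM in Hcy and at 82.7, 76.7 and 39.1 CPM in Veh. The libraries of each group spread widely and overlapped, with Veh replicate 3 the lowest of the 6. The log2 fold change was -0.20 (standard error 0.26, 95% interval -0.79 to 0.40, edgeR, adjusted p = 0.828). Without Veh replicate 3 it was -0.46 (standard error 0.15, edgeR, adjusted p = 0.117), and without Veh replicate 1 or 2 it was closer to 0. Atp7b, the pump of liver, had 4, 2 and 6 counts in Hcy and 9, 7 and 3 in Veh, a level of 0.0885 TPM against 13.6 TPM for Atp7a. Its log2 fold change was -0.60 (standard error 0.62, 95% interval -2.01 to 0.81, edgeR, adjusted p = 0.762), so that short of a large one a difference was not detectable at this depth. Leaving out 1 library moved it between -0.91 (without Hcy replicate 3) and -0.30 (without Hcy replicate 2), and it was -0.89 without Veh replicate 3.

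All 3 magnesium carriers had a positive log2 fold change, and none passed. Slc41a2 is listed on chromosome 7 from 26522314 to 26607861 and was at 9.26, 10.7 and 12.8 CPM in Hcy and at 8.01, 8.92 and 6.16 CPM in Veh. All Hcy libraries lay above all Veh libraries, by a narrow margin between Hcy replicate 1 and Veh replicate 2. The log2 fold change was 0.50 (standard error 0.18, 95% interval 0.09 to 0.92, edgeR, adjusted p = 0.247), and 0.37 without Veh replicate 3 (adjusted p = 0.235). Slc41a1, the sodium-coupled magnesium exporter and the highest of the family at 35.9 TPM, was at 96.2, 98.7 and 92.4 CPM in Hcy and at 94.9, 85.9 and 76.3 CPM in Veh. Its groups overlapped, at a log2 fold change of 0.16 (standard error 0.09, edgeR, adjusted p = 0.518). It was 0.08 without Veh replicate 3 and 0.24 without Veh replicate 1. Slc41a3, a mitochondrial carrier, had a log2 fold change of 0.08 (95% interval -0.26 to 0.43), which lay between 0.03 (without Veh replicate 1) and 0.17 (without Veh replicate 2) when 1 library was left out.

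Other genes of the same metals were taken from lists drawn up by role. Of 33 tested, none passed an adjusted p of 0.05 by edgeR, against 2.34% of all genes tested, or by DESeq2, against 4.14%. An unadjusted p under 0.05 was found in 7 of 33, against 13.4% of all genes, and no overlap between groups in 10 of 33 (30.3%), against 20.1%. In Hcy 10 were higher and 23 lower, where all genes tested split into 6854 higher and 7749 lower. Trpm6, a channel for magnesium uptake, was at 5.60, 6.25 and 5.55 CPM in Hcy and at 9.91, 8.09 and 7.96 CPM in Veh, so all Hcy libraries lay below all Veh libraries. Its log2 fold change was -0.58 (standard error 0.15, edgeR, adjusted p = 0.112). Without Veh replicate 3 it was -0.63 and was the 1 gene of the 33 to pass (edgeR, adjusted p = 0.0491), where 6.67% of all genes passed. Nipal2, a magnesium carrier, was at 36.8 ± 0.579 CPM (SD, n = 3) for Hcy against 44.8 ± 3.91 CPM (SD, n = 3) for Veh, with no overlap and a log2 fold change of -0.28 (edgeR, adjusted p = 0.168). Cnnm3, of a family tied to magnesium transport, had one of 0.25 (adjusted p = 0.259). Sod1, the copper and zinc enzyme that Ccs loads, was the most abundant of the copper list at 507 TPM. It was at 188, 163 and 159 CPM in Hcy and at 180, 173 and 233 CPM in Veh, and its log2 fold change was -0.20 (95% interval -0.48 to 0.07). Leaving out its highest library, Veh replicate 3, gave -0.06 (95% interval -0.23 to 0.11). Cp, the copper-carrying ferroxidase ceruloplasmin, had 51, 41 and 38 counts in Hcy and 16, 38 and 13 in Veh. Its groups overlapped through Veh replicate 2, at a log2 fold change of 1.01 (standard error 0.40, edgeR, adjusted p = 0.31). Sod3, the secreted copper and zinc superoxide dismutase, had 18, 15 and 18 counts in Hcy and 7, 11 and 10 in Veh, with no overlap (log2 fold change 0.90, standard error 0.38, edgeR, adjusted p = 0.338). Groups without overlap were also seen in Steap2 and Cox19, with log2 fold changes of -0.59 and -0.20, and in Steap3 and Magt1, with 0.20 and 0.08. Without Veh replicate 3 the values were -0.69 for Steap2, -0.13 for Cox19, 0.16 for Steap3 and 0.08 for Magt1. Among the zinc genes S100a9, a subunit of the zinc-binding protein calprotectin, was at 4.02, 4.70 and 3.28 CPM in Hcy and at 1.84, 2.36 and 2.35 CPM in Veh. Its groups did not overlap, and the log2 fold change was 0.87 (standard error 0.23, edgeR, adjusted p = 0.107). S100a8, the partner of S100a9, had 1 count in all. Prnp, the prion protein, which binds copper and zinc, was the most abundant of these genes at 1053 TPM, with a log2 fold change of -0.17 (edgeR, adjusted p = 0.304). These genes were named after their values had been seen.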

How the data were processed

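RNA was measured by poly(A) RNA-seq in 3 Hcy and 3 Veh libraries. What the authors deposited is a table of raw counts, 1 row per gene, with its length, position and name. Their processing notes name fastp, HISAT2 2.2.1, StringTie 2.2.3, Cufflinks, featureCounts 2.0.6 and DESeq2 1.42.0, and the builds mRatBN7.2 and rn7. The table itself names no build, and its positions reach 282724300 on chromosome 1. The listed gene positions may therefore belong to another build than those named, and are given as the table has them. A further deposited table holds the authors' own fold changes and p-values and was not used.

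Counts were tested with edgeR 4.0.16 (quasi-likelihood, TMM) in R 4.3.3 on the 14603 genes whose counts over all 6 libraries came to 10 or more, with Benjamini-Hochberg adjustment over all of them. A gene passed at an adjusted p of at most 0.05, and a second rule also asked for a log2 fold change of at least 1 in size. CPM used TMM factors (0.977 to 1.02), and TPM came from the counts and the listed lengths. Differences between Veh libraries used log2(CPM + 0.5). Library totals limit the precision by counting error alone, given as the floor of 3 counts.

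Every gene of the list is accounted for. Full values are given for the metallothioneins, Mtf1, Slc30a1, the copper genes, the highest gene of each role, and genes whose groups did not overlap. Promoters were printed for 3 genes chosen after their values had been seen, because no gene met the rule for printing one. The genes and lists were chosen with earlier results of these data known. Alternatives were DESeq2 1.42.0, other scalings and filters, a replicate block, a prior count of 2 and leaving out each library. Summing the metallothionein rows, with and without Veh replicate 3, was added after seeing the data. The code was tested on simulated data.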

Additional observations from a re-analysis of the deposited data

How the results depend on the processing

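The number of metal handling genes that passed with the fold threshold was 0 in every fit. Without that threshold it was 0 with all libraries, 1 (Mt2A) by DESeq2, 1 (Mt2A) with no minimum on counts, and between 0 and 3 when 1 library was left out, the 3 being Mt2A, Slc30a1 and Slc39a13 without Veh replicate 3. Over all genes, leaving out 1 library moved the number that passed from 341 to between 80 (without Hcy replicate 1) and 957 (without Veh replicate 3), DESeq2 gave 604, and the cause was not tested. The scalings moved the median log2 fold change of all genes by less than 0.1. Of the 32 genes, 20 kept their direction in all fits. The other 12, none with a log2 fold change over 0.15 in size with all libraries, took both signs when 1 library was left out: Ccs from -0.223 to 0.0131, Slc39a1 from -0.00048 to 0.123, Slc39a10 from -0.0448 to 0.153, Slc30a5 from -0.00139 to 0.0778, Slc30a7 from -0.108 to 0.0355, Slc39a7 from -0.0695 to 0.0106, Slc39a6 from -0.0951 to 0.0267, Slc39a14 from -0.0691 to 0.0216, Mt3 from -0.302 to 0.197, Slc39a11 from -0.0898 to 0.0646, Slc31a2 from -0.0219 to 0.0312 and Slc39a8 from -0.0451 to 0.032.

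Libraries with the same replicate number had correlations of their deviations of -0.009, 0.110 and 0.048, so the numbers were not taken as pairs. With the replicate number as a block, 298 of all genes passed and 0 of the metal handling genes with or without the fold threshold, and Mt2A had a log2 fold change of -0.61 (edgeR, adjusted p = 0.0712). Mt1m, Mt3 and Atp7b, with at most 9 counts in any library, are limited by depth.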
